A study of Mus musculus with 6 samples.

Results

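The comparison set the cochlea 12 h after noise and dexamethasone against the cochlea of mice that received neither. Both groups were female C57BL/6 mice aged 6 weeks. The exposed mice spent 2 h in intense noise and were then injected intraperitoneally with dexamethasone at 10 mg/kg, and their cochleae were taken 12 h later. The baseline mice had no noise and no drug. The labels place 6 mice in each group, but each group was hybridised to 1 array of total RNA labelled with Cy3, and the sources do not say how the RNA of the mice was combined. The series holds 6 arrays, and these 2 are the ones compared here. The others (noise only, saline 12 h, saline 24 h and dexamethasone 24 h) are cited where a gene's level in them matters. Noise and drug differ together between the 2 groups, so neither can be told apart from the other within the comparison. Both 12 h arrays lay on a slide and in a scan session of their own, away from the baseline array, and group and slide cannot be told apart either.

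Dexamethasone is a synthetic glucocorticoid. It binds the glucocorticoid receptor, a transcription factor held in the cytosol by chaperones, which then enters the nucleus, switches on genes such as Fkbp5, Tsc22d3 and Per1, and restrains NF-kB and AP-1 at inflammatory genes. In the cochlea the receptor is found in the organ of Corti, the spiral ligament and the spiral ganglion, and glucocorticoids are given for sudden and noise-induced hearing loss. Loud noise is known to bring chemokines, monocytes and immediate early genes into the cochlea within hours, and dexamethasone is also a strong resetting signal for peripheral circadian clocks.

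A level below is the log2 signal of a gene's probe minus the 75th percentile of all probes on that array, so that 0 is that percentile and 1 unit is a 2-fold step. Of 56589 probes, 36618 were well above background on both arrays, and these covered 23821 of 37317 genes. With 1 array a group there is no test and no p-value. A gene was called when the arrays differed by at least 2-fold, and intervals around a fold cover spot error only, not differences between mice. Called genes numbered 1715, which is 7.2% of the genes measured. Of these, 1085 were higher 12 h after noise and dexamethasone (4.55%) and 630 were lower (2.64%). Counts of called members in the lists below are to be read beside these shares. The median over all measured genes was 0.00 and the middle 95% of genes lay between -1.02 and 1.28. A 4-fold distance was passed by 188 genes upwards and by 39 downwards, and a 10-fold distance by 46 and 6. Beyond these, 554 genes were above background on the treated array alone with a bound of at least 2-fold, and 175 on the baseline array alone. Whatever their bound, 980 genes were above background on the treated array alone and 1091 on the baseline array alone. The lowest level called above background was -5.32 at baseline and -5.00 on the treated array, which makes a 2-fold bound easier to reach upwards. Scaling the arrays on their E1A spike-in probes in place of the 75th percentile moved the median of all genes by -0.53 and turned the split to 379 higher and 3449 lower, so every difference below is relative to the typical gene. Lists and genes with a difference between 0 and 0.53 take the opposite sign on the spike-in scale, and the medians of such lists on that scale are given beside them. Against the same baseline array, 7.84% of genes were called on the saline 12 h array (4.41% higher, 3.42% lower) and 3.33% on the dexamethasone 24 h array (1.31% higher, 2.02% lower).

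**Figure D1:**
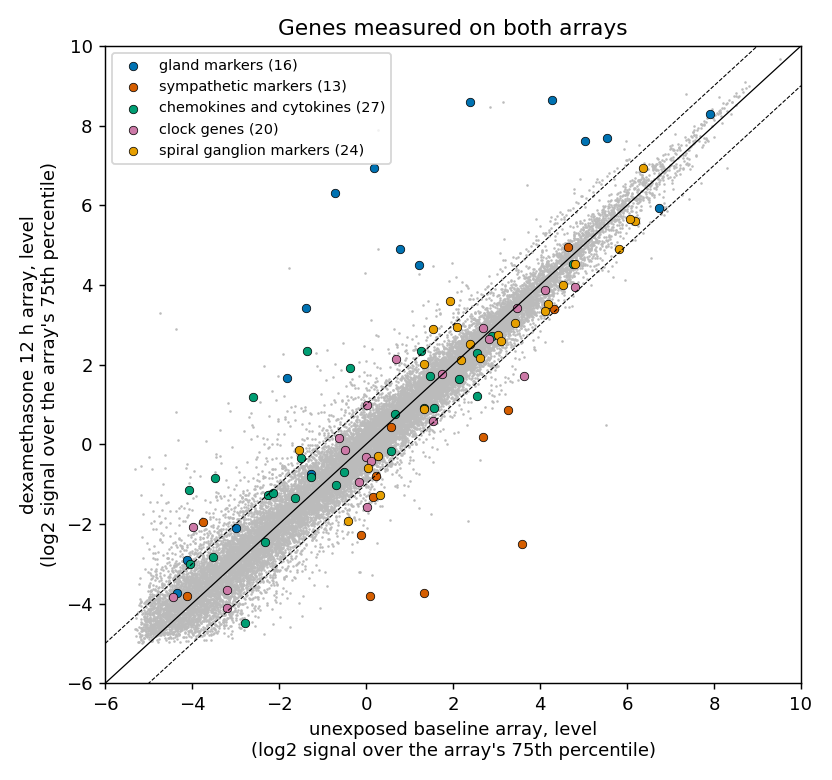
Level of each of the 23821 genes measured on both arrays, baseline array on the x axis and dexamethasone 12 h array on the y axis, both as log2 signal over the array's 75th percentile. The solid line marks equal levels and the dashed lines a 2-fold difference. Of the gland markers, 11 of 16 lie above the upper dashed line. Of the sympathetic markers, 8 of 13 lie below the lower dashed line and 1 above the upper. Spiral ganglion markers lie under the diagonal for 17 of 24.

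On the mm9 build named in the file headers, the probes of the genes on which the text turns most lie for Ccl2 at chr11:81850650-81850709, Dbp at chr7:52965265-52965324, Hmox1 at chr8:77624406-77624466, Gdf15 at chr8:73153293-73153352, Muc5b at chr7:149058931-149058990 and Dbh at chr2:27038665-27038724.

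Defining genes of the cochlea were present on both arrays. Otos, a protein of spiral ligament fibrocytes, read 7.59 at baseline and 7.25 after treatment, and Coch, the gene of cochlin, read 5.86 and 5.84. Otof and Ocm, markers of inner and outer hair cells, read 2.05 and 2.90 at baseline against 1.92 and 2.90. Slc26a5, which encodes prestin, did not stand well above background on these arrays.

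The glucocorticoid pathway itself stood close to baseline at 12 h. Of 28 canonical receptor targets, all measured, 1 was called higher and 1 lower, with a median of 0.26 (-0.27 on the spike-in scale) beside 0.00 over all genes. These counts are near the shares over all genes, 4.55% higher and 2.64% lower. Il1r2, the decoy receptor for interleukin 1, read -0.01 at baseline and 1.21 after treatment, 2.32-fold higher (1.76 to 3.07). Zbtb16, a transcriptional repressor, read 1.92 and 0.72, 2.29-fold lower (1.74 to 3.03), and its other probe read lower as well, at -0.80. The saline 12 h array differed from the same baseline array by 1.04 for Il1r2 and by -1.12 for Zbtb16. These comparisons share the baseline array, and the difference between them was not tested.

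The classical induced targets lay within 2-fold of baseline. Fkbp5, the immunophilin that dampens receptor signalling, read 1.82 at baseline and 1.77 after treatment, and Tsc22d3, which encodes the anti-inflammatory protein GILZ, read 4.27 and 4.20. Sgk1, a kinase that regulates ion transport, read 3.50 and 3.62, and Per1 read 2.68 and 2.93. Klf9, a repressor induced by glucocorticoids, differed by 0.28. The next largest differences were those of the cell cycle inhibitor Cdkn1a (0.98), the kinase Map3k6 (0.85), the lipid droplet protein Plin4 (0.82), the mTORC1 inhibitor Ddit4 (0.77) and the MAP kinase phosphatase Dusp1 (0.69). Plin4 read 2.13 with noise only, 1.85 with saline at 12 h, 2.499 with saline at 24 h and 2.48 with dexamethasone at 24 h, all below the 2.87 of the treated array.

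The receptor machinery showed no called member among 16 measured genes, with a median of -0.01. Nr3c1, the glucocorticoid receptor, read 3.29 and 3.13. Hsd11b1, which regenerates active glucocorticoid, read 2.28 and 1.94, and Hsd11b2, which inactivates it, did not stand well above background on these arrays.

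The receptor binds a palindrome whose core can be written GNACA, 3 bases of any kind, TGTNC. That core lies within the 250 bases before the RefSeq start (GRCm38.p6) of 4 of the 24 target genes found in the promoter table, against 119 of 27025 genes in all (0.44%), both strands searched. The full consensus was found in 1 target, Sgk1, and in 3 genes overall. The stretches of Sgk1 (chr10:21993682-21993734, plus strand) and Map3k6 (chr4:133240617-133240669, plus strand) are shown because these are targets with a core match whose levels differed by 0.13 and 0.85, with the core in capitals.
Sgk1: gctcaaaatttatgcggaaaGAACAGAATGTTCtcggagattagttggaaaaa
Map3k6: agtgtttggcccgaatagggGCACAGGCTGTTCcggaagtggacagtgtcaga
A match of letters is a description of these windows and not evidence of binding.

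Circadian clock genes lay on both sides of baseline. In the oscillator Arntl (BMAL1) and Clock drive Per, Cry, Nr1d1 and Dbp through E-boxes, the repressors Nr1d1 and Nr1d2 hold down Arntl, Npas2 and Nfil3, and Dbp, Tef and Hlf carry the rhythm to output genes. All 20 listed genes were measured, 2 were called higher and 2 lower, and the median was -0.20. Genes of the E-box arm were split, with Cry1 the highest of the list, Per1 and Per2 slightly above 0, and Dbp, Nr1d1 and Per3 below it.

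On the high side, Cry1, a late repressor, read -3.99 at baseline and -2.09 after treatment, 3.74-fold higher (2.71 to 5.17). Nfil3, the repressor that competes with Dbp, read 0.70 and 2.15, 2.73-fold higher (2.07 to 3.61). Arntl read 0.01 and 0.99, 1.98-fold higher (1.498 to 2.61), and its other probes gave 1.38 and 1.56. Npas2, a partner of Arntl like Clock, differed by 0.59. On the spike-in scale these 4 genes kept their sign.

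On the low side, Dbp read 3.63 and 1.71, 3.79-fold lower (2.87 to 5.00), with its other probe at -2.09. Nr1d1, the repressor REV-ERB alpha, read 0.01 and -1.57, 3.00-fold lower (2.27 to 3.97). Nr1d2 differed by -0.94, Ciart by -0.92, Tef by -0.86 (other probes -0.55 to 0.36), Per3 by -0.77 and Hlf by -0.53. Per2 read -0.48 and -0.15, within spot error of no difference.

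Dbp had its lowest level of the 6 arrays on the treated array. Its levels were 5.88 with noise only, 3.20 with saline at 12 h, 5.79 with saline at 24 h and 2.57 with dexamethasone at 24 h. Arntl ran the other way, with -0.84 under noise only, 0.61 with saline at 12 h, -1.59 with saline at 24 h and 0.41 with dexamethasone at 24 h. The saline 12 h differences from the same baseline array were -0.44 for Dbp, -0.62 for Nr1d1, 0.79 for Nfil3, 1.38 for Cry1 and 0.60 for Arntl. The labels do not give the hour of day of dissection, and the part of clock time in these values was not tested.

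**Figure D2:**
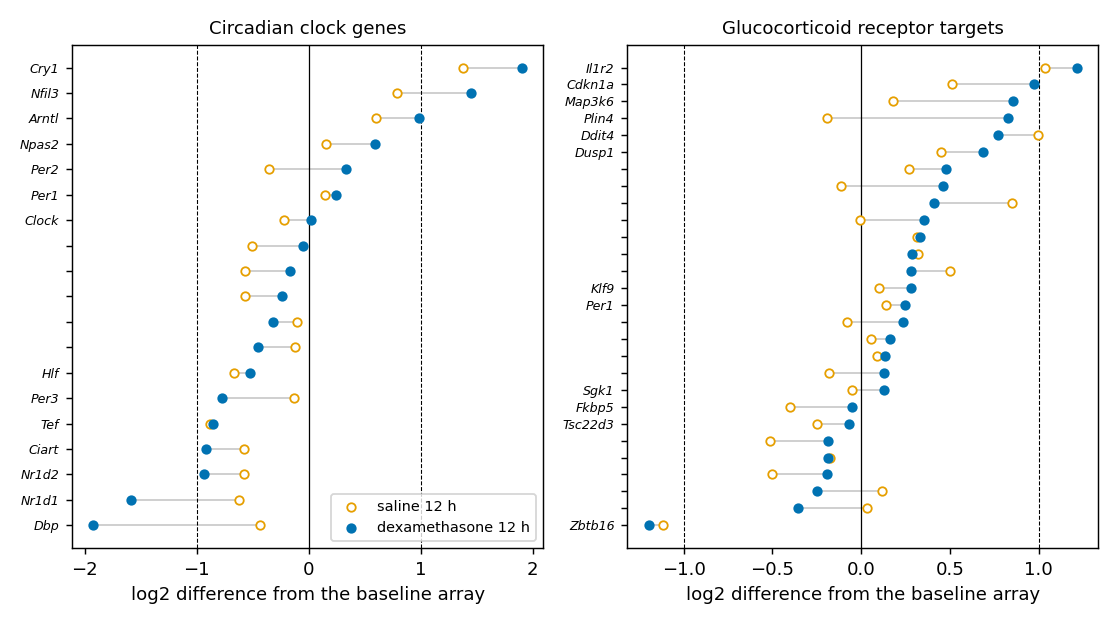
Log2 difference from the baseline array for 19 of 20 clock genes (left) and 28 glucocorticoid receptor targets (right), with names on the genes the text describes, filled points for dexamethasone 12 h and open points for saline 12 h, with dashed lines at a 2-fold difference. Clock genes spread from Dbp at -1.92 to Cry1 at 1.90, whereas the receptor targets lie between Zbtb16 at -1.20 and Il1r2 at 1.22.

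The E-box CACGTG, the same on both strands, was found in the 250 bases before the start of 5 of 16 clock genes in the promoter table, beside 1854 of 27025 genes in all (6.86%). It was not particular to the clock list, with 7 of 24 glucocorticoid receptor targets and 3 of 18 immediate early genes holding it. Among 19 interferon-stimulated genes and 25 cytokine genes it was found in 0. The D-box, searched on both strands as TTATGTAA or GTTACGTAA, was found in 1 of the 16 clock genes, against 1.02% of all genes. The matched stretches of Cry1 (chr10:85185089-85185134, minus strand), Ciart (chr3:95882247-95882364, minus strand), Tef (chr15:81802526-81802571, plus strand) and Per3 (chr4:151044796-151044890, minus strand) are shown because genes with the same E-box lay apart, Cry1 on the high side and Ciart and Tef on the low side. Capitals mark the E-box, or in Per3 the D-box.
Cry1: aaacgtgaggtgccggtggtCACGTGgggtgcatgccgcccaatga
Ciart: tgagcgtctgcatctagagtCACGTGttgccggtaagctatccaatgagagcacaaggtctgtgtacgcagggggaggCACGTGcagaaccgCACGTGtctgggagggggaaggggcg
Tef: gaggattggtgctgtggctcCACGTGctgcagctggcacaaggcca
Per3: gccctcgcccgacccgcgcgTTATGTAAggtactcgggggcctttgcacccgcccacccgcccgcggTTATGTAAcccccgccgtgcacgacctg

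Chemokines and cytokines held 8 called higher and 2 called lower among 27 measured genes, with a median of 0.24 (-0.29 on the spike-in scale). The high members were mainly ligands that attract monocytes and neutrophils. Ccl7 read -2.60 at baseline and 1.18 after treatment, 13.7-fold higher (10.3 to 18.2). Ccl2, the main ligand of the monocyte receptor CCR2, read -1.35 and 2.33, 12.8-fold higher (9.71 to 16.9). Across the other arrays Ccl2 read 1.81 with noise only, 2.22 with saline at 12 h, 1.12 with saline at 24 h and 2.69 with dexamethasone at 24 h, so the baseline array was the lowest of the 6.

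Cxcl1, a neutrophil attractant, read -3.48 and -0.85, 6.20-fold higher (4.55 to 8.46), and Cxcl10, a T cell attractant induced by interferon, read -0.38 and 1.92, 4.92-fold higher (3.73 to 6.50). Ccl12, Ccl9 and Il11 were 2.24-fold, 2.10-fold and 2.08-fold higher. Cxcl13, a B cell attractant, read -4.08 and -1.15, 7.63-fold higher (5.42 to 10.8). It differed from the other high chemokines in the saline 12 h array, where it lay 0.31 above baseline while Ccl7, Ccl2, Cxcl1 and Cxcl10 lay 3.80, 3.57, 1.99 and 2.51 above it.

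The low members were Cxcl9, another ligand of CXCR3, at 3.26-fold lower (2.19 to 4.85), and Ccl21a, which guides lymphocytes and dendritic cells, at 2.52-fold lower (1.91 to 3.32). Cxcl9 read -2.79 at baseline, -4.49 after treatment, -3.24 with noise only, -1.91 with saline at 12 h, -2.41 with saline at 24 h and -1.97 with dexamethasone at 24 h. The cytokine Tnf was near baseline at -0.13, and Il1b at 0.29 (-0.24 on the spike-in scale). Il6 and Ccl20 were above background on the treated array alone, at least 2.13-fold and 3.93-fold higher. Cxcl2, Il1a and Lif did not stand well above background on these arrays.

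NF-kB drives many of these genes, and a loose form of its site (GGGA, 4 bases of any kind, CC, both strands) was found in the 250 bases before the start of 10 of 25 listed cytokine genes in the promoter table, beside 19.7% of all genes. The same form was found in 6 of 18 immediate early genes and 7 of 24 glucocorticoid receptor targets. It was also found in 4 of 19 interferon-stimulated genes and 3 of 16 clock genes. The stretches of Cxcl1 (chr5:90891135-90891204, plus strand), Cxcl10 (chr5:92348963-92349068, minus strand) and Cxcl9 (chr5:92328180-92328229, minus strand) are shown because the site is present both in genes that were higher and in one that was lower. Capitals mark the matches, which overlap in Cxcl1.
Cxcl1: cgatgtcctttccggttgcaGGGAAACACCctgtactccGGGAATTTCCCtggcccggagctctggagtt
Cxcl10: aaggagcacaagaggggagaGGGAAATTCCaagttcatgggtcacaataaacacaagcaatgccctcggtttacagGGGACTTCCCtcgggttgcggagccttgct
Cxcl9: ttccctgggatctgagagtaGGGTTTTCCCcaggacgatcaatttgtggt
The NF-kB subunits and feedback genes themselves held 1 called member of 19, beside 7.2% called over all genes, with a median of 0.17 (-0.36 on the spike-in scale). That member was Socs3, the inhibitor of JAK and STAT signalling, which read 0.89 and 2.12 and was 2.34-fold higher (1.78 to 3.09), and 1.23 above baseline on the saline 12 h array too.

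Interferon-stimulated genes stood only slightly above baseline. All 30 were measured, 2 were called higher and 1 lower, 23 lay above 0, and the median was 0.17 (-0.36 on the spike-in scale). The called counts are near the shares over all genes, 4.55% higher and 2.64% lower. The same list had a median of 0.88 on the saline 12 h array, 0.58 on the dexamethasone 24 h array, 1.17 with noise only and 1.26 with saline at 24 h, each against the same baseline array, and these differences were not tested. Mx2, a GTPase that traps incoming viral particles, read -1.44 at baseline and 0.12 after treatment, 2.94-fold higher (2.23 to 3.89). Ifit3, which binds foreign RNA together with Ifit1, read 1.20 and 2.54, 2.53-fold higher (1.92 to 3.33). Ifit1 lay 0.79, Usp18 0.81 and Mx1 0.61 above baseline.

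Irf7, the master transcription factor of the interferon response, read 3.15 at baseline and 3.20 after treatment. Its levels on the other arrays were 4.78 with noise only, 4.50 with saline at 12 h, 4.99 with saline at 24 h and 3.84 with dexamethasone at 24 h, so the treated array lay next to baseline and below all of these. Isg15, a ubiquitin-like modifier, read 2.99 and 3.06 beside 3.70 with noise only, 4.09 with saline at 12 h, 3.69 with saline at 24 h and 2.88 with dexamethasone at 24 h. Oas3, a sensor of double-stranded RNA, read -2.46 and -3.59, 2.18-fold lower (1.54 to 3.07).

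The interferon response element, searched on both strands as GAAA, 2 bases of any kind, GAAA, was found in the 250 bases before the start of 9 of 19 listed genes in the promoter table, beside 936 of 27025 genes (3.46%). The stretches of Ifit3 (chr19:34583353-34583436, plus strand), Isg15 (chr4:156200855-156200916, minus strand) and Oas3 (chr5:120777705-120777754, minus strand) are shown because these carried the element and stood above, at and below baseline. Capitals mark the element, with overlapping matches in Isg15.
Ifit3: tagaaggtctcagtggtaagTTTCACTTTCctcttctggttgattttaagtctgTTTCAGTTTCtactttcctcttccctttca
Isg15: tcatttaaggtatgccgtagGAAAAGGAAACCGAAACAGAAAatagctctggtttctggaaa
Oas3: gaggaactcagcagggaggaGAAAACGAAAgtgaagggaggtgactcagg

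**Figure D3:**
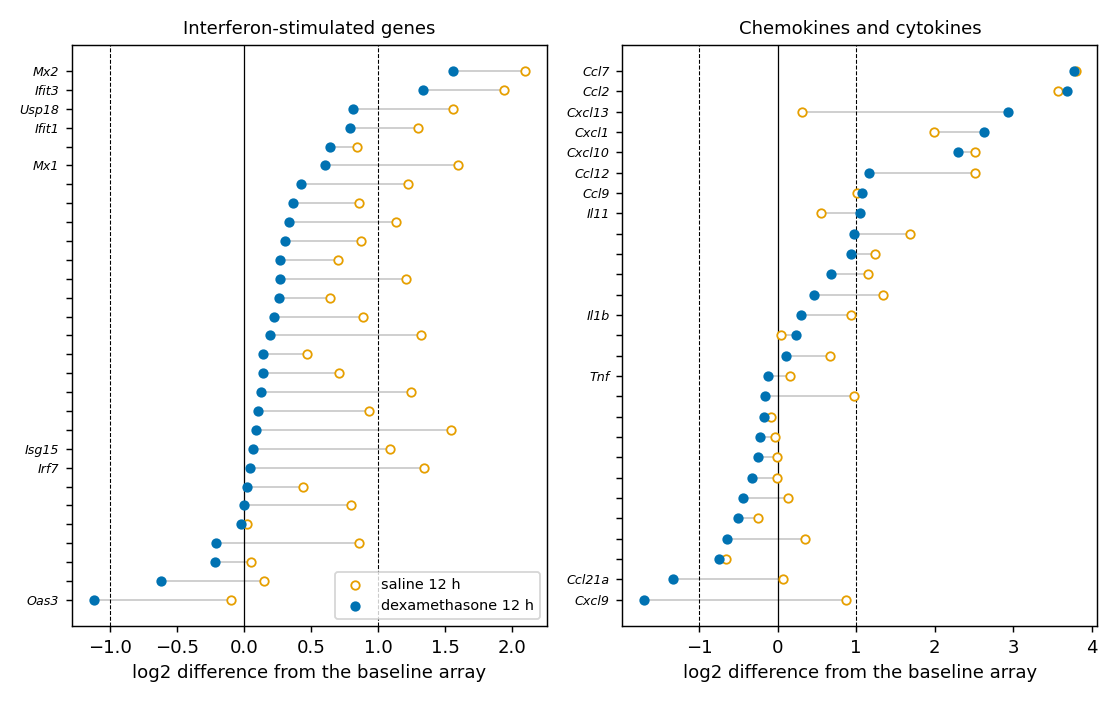
Log2 difference from the baseline array for 29 of 30 interferon-stimulated genes (left) and 27 chemokines and cytokines (right), with names on the genes the text describes, filled points for dexamethasone 12 h and open points for saline 12 h, with dashed lines at a 2-fold difference. Most filled interferon points lie near 0, with Mx2 at 1.56 and Ifit3 at 1.34, while Ccl7 and Ccl2 lie near 3.7 in both arrays.

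Immediate early genes, transcription factors switched on within minutes of a stimulus, were on average higher. Of 23 measured, 4 were called higher and none lower, 19 lay above 0, and the median was 0.68 (0.15 on the spike-in scale). The list's median was above baseline on the other arrays too, at 0.21 with noise only and 0.47 with saline at 12 h. At 24 h it was 0.23 with saline and 0.33 with dexamethasone. Egr4 read -3.71 and -1.40, 4.96-fold higher (3.63 to 6.78). Atf3, a stress-induced repressor, read -1.27 and 0.75, 4.07-fold higher (3.08 to 5.38). Npas4, an activity-dependent neuronal factor, was 2.65-fold higher (2.00 to 3.50) and Fos 2.17-fold higher (1.64 to 2.86). Fosl1 was above background on the treated array alone, at least 4.48-fold higher. Junb (0.84), Fosb (0.81), Nr4a1 (0.76) and Jun (0.68) lay between 0.5 and 1, and Egr1, at 0.31, turned to the low side on the spike-in scale. Arc, a synaptic activity gene, was the lowest, at -0.998.

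Acute phase proteins held 5 called higher and none lower among 19 measured genes, with a median of 0.43 (-0.10 on the spike-in scale). Serpina3m, a protease inhibitor, read -3.35 at baseline and 0.36 after treatment, 13.1-fold higher (9.71 to 17.7). On the other arrays it read -2.76 with noise only, -3.31 with saline at 12 h, -3.47 with saline at 24 h and -3.11 with dexamethasone at 24 h, so it was high on the treated array alone. Serpina3c (2.85-fold) and Serpina3n (2.15-fold) were also higher, and differed from baseline by -0.29 and -1.42 on the saline 12 h array. Serpina3n read -0.89 on the treated array, -1.39 with noise only and -1.60 with dexamethasone at 24 h. Saa2, a serum amyloid A, read -4.06 and -0.84, 9.34-fold higher (6.56 to 13.3), and Saa1 was 2.40-fold higher (1.82 to 3.17). Saa3 was above background on the treated array alone, at least 30.0-fold higher, and it was well above background with saline at 12 h at a level of -1.498.

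Plasma protein genes of the liver appeared on the treated array. Alb, which encodes albumin, read 0.60 there and was not well above background at baseline, a bound of at least 60.4-fold, and Fgb and Fgg, the beta and gamma chains of fibrinogen, were at least 6.52-fold and 4.27-fold higher. Alb read -3.44 with saline at 12 h. The metallothioneins Mt1 and Mt2, which bind zinc and are glucocorticoid-responsive, differed by 0.43 and 0.12.

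Genes of the endoplasmic reticulum stress response held 3 called higher and none lower among 19, with 17 above 0 and a median of 0.43 (-0.11 on the spike-in scale). The list's median was 0.12 with noise only and 0.25 with saline at 12 h. At 24 h it was 0.07 with saline and 0.20 with dexamethasone. Gdf15, a secreted stress cytokine, read -1.91 and 2.26, 18.0-fold higher (13.6 to 23.8). Its levels elsewhere were 0.39 with noise only, 1.76 with saline at 12 h, 0.12 with saline at 24 h and 2.91 with dexamethasone at 24 h. Sdf2l1, a chaperone partner in the reticulum, was 2.19-fold higher (1.66 to 2.89) and Trib3, a pseudokinase induced by ATF4, 2.12-fold higher (1.61 to 2.80). Chac1 differed by 0.99, Xbp1 by 0.87, Ddit3 by 0.81 and the chaperone Hspa5, known as BiP, by 0.64.

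Cytosolic heat shock proteins held 3 called higher among 16, with 15 above 0 and a median of 0.33 (-0.20 on the spike-in scale). The list's median was 0.14 with noise only and 0.23 with saline at 12 h. At 24 h it was 0.03 with saline and 0.31 with dexamethasone. Hspa1b, an inducible HSP70, read -0.33 and 1.64, 3.92-fold higher (2.97 to 5.17), beside 0.46 with saline at 12 h. Hspa1a was 2.40-fold higher (1.82 to 3.17) and the small heat shock protein Hspb1 2.01-fold higher (1.52 to 2.65). All 3 had their highest level of the 6 arrays on the treated array.

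Among antioxidant genes none was called higher and 2 of 22 were called lower, with a median of -0.16. Hmox1, the haem-degrading enzyme, read 2.61 at baseline and -0.41 after treatment, 8.12-fold lower (6.15 to 10.7). It was lower on every other array too, at -1.30 with noise only, -0.30 with saline at 12 h, -1.13 with saline at 24 h and 1.03 with dexamethasone at 24 h. Cat, the catalase gene, was 2.08-fold lower (1.58 to 2.75). In sterol and fatty acid synthesis 1 of 22 was called lower, the desaturase Scd1 at 2.69-fold (2.04 to 3.55), although its other probe differed by 0.01, and the median was -0.30.

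**Figure D4:**
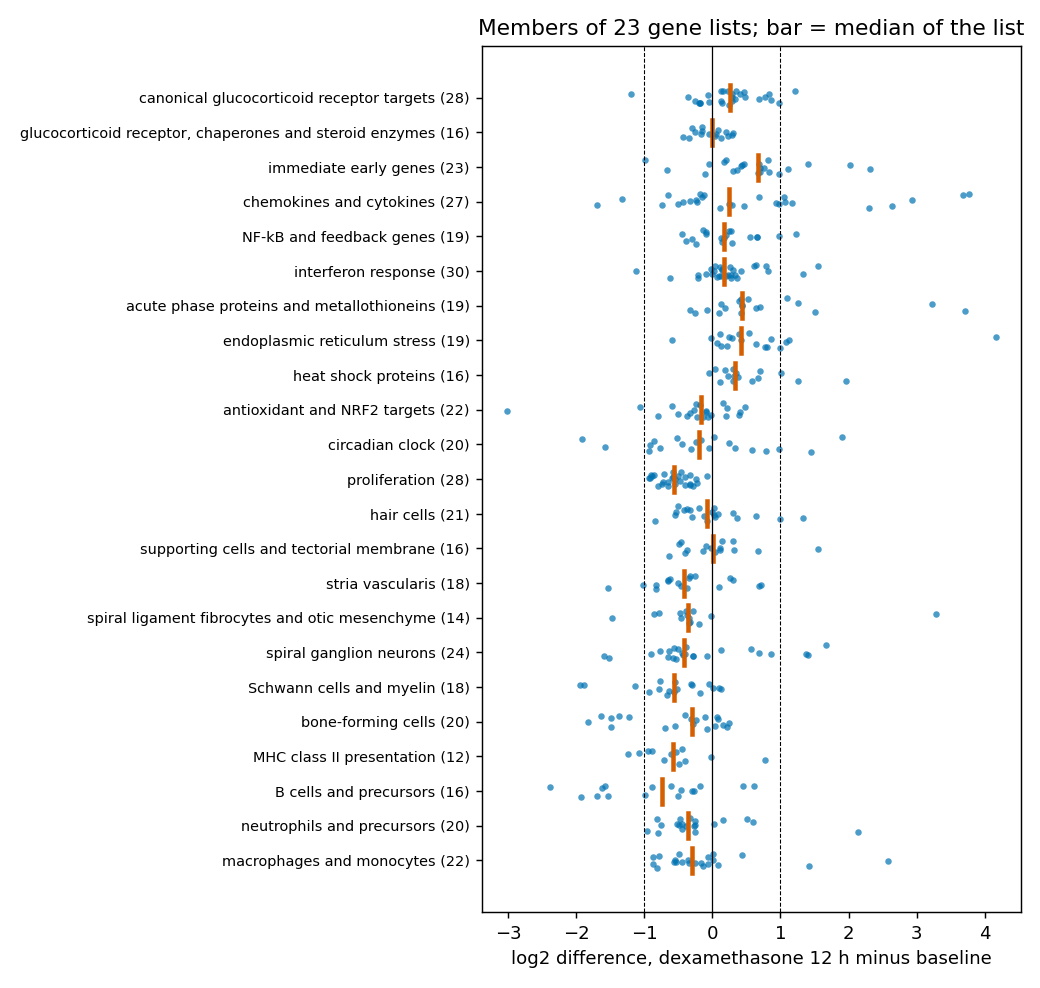
Log2 difference, dexamethasone 12 h minus baseline, for each measured member of 23 gene lists (points, number of members in brackets), with an orange bar at each list's median and dashed lines at a 2-fold difference. Immediate early genes have the highest median of the lists shown, at 0.68, and B cells and precursors the lowest, at -0.75.

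Blood, marrow and bone genes were on the low side. In bulk tissue, fewer cells of a type and less RNA per cell cannot be told apart. Of 16 measured B cell and precursor genes, 6 were called lower and none higher, with a median of -0.75. Vpreb1, part of the surrogate light chain of pre-B cells, read 1.02 at baseline and -0.91 after treatment, 3.81-fold lower (2.88 to 5.03), and Igll1, its partner, was 5.24-fold lower (3.40 to 8.10). Pou2af1, Fcrla, Vpreb3 and Dntt were 3.25-fold, 3.09-fold, 3.00-fold and 2.91-fold lower. The list had a median of -1.33 with noise only, 0.31 with saline at 12 h, -0.45 with saline at 24 h and -0.62 with dexamethasone at 24 h. Vpreb1 read 1.88 with saline at 12 h, above baseline, and -2.27 with noise only, below the treated array.

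MHC class II genes had a median of -0.57, with H2-Eb1 (2.35-fold) and H2-Aa (2.12-fold) called lower among 12, whereas MHC class I genes had a median of -0.08 and no called member of 14. The class II median was -0.79 with noise only, 0.36 with saline at 12 h, -0.28 with saline at 24 h and -0.31 with dexamethasone at 24 h, so it was lower still with noise only. The class I median was 0.03, 0.69, 0.31 and -0.04 on the same arrays. T and NK cell genes had 2 called lower of 17, Klrd1 and Il7r. All 28 proliferation genes lay below 0, none of them by 2-fold, and their median was -0.56, from Cdk1 at -0.93 to Rrm2 at -0.08. This list had a median of -0.75 with noise only, 0.20 with saline at 12 h, 0.03 with saline at 24 h and -0.89 with dexamethasone at 24 h.

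Megakaryocyte and platelet genes were all at or below 0, with a median of -0.64 and Tubb1 (2.69-fold) and Ppbp (2.01-fold) called lower of 14. Erythroid genes had a median of -0.44, with 1 called higher and 1 lower of 20, neutrophil genes -0.36, and eosinophil, mast cell and basophil genes -0.26. In this order the 4 medians were -0.95, -0.68, -1.12 and -1.155 with noise only, lower than on the treated array. With dexamethasone at 24 h they were lower too, at -1.08, -0.99, -1.175 and -0.86. With saline at 12 h they were above 0, at 0.15, 0.08, 0.42 and 0.70. With saline at 24 h they were -0.34, -0.02, -0.69 and -0.38. In the neutrophil list the only called member was Ltf, 4.42-fold higher (3.35 to 5.83), and in the macrophage list (median -0.30) the only called members were Lyz1, 5.99-fold higher, and Lyz2, 2.69-fold higher. Ltf and Lyz1 belong to the gland list as well.

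Bone-forming cell genes held 6 called lower and none higher of 20, with a median of -0.30. Bglap, the gene of osteocalcin and a gene repressed by glucocorticoids in bone, read 5.95 at baseline and 4.13 after treatment, 3.54-fold lower (2.68 to 4.67), with its other probe at -0.51. Ifitm5, Alpl, Panx3, Bglap2 and Smpd3 were 3.12-fold, 2.82-fold, 2.81-fold, 2.60-fold and 2.33-fold lower. Bglap read 4.89 with noise only and between 6.03 and 6.08 on the saline 12 h, saline 24 h and dexamethasone 24 h arrays. The osteoclast list had no called member of 14 and a median of -0.07. Collagens and matrix genes had a median of -0.49, with Col6a2 alone called, 2.87-fold lower, although its other probes lay between -0.27 and 0.00.

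Cochlear cell lists lay near or below baseline. The hair cell list had a median of -0.07 over 21 measured genes, and its called member was Chrna9, the receptor of the efferent synapse, 2.505-fold higher (1.89 to 3.33). Ush1c, which encodes the bundle protein harmonin, differed by 0.37. Supporting cell and tectorial membrane genes had a median of 0.01 (-0.53 on the spike-in scale), with the glutamate transporter Slc1a3 2.94-fold higher (2.23 to 3.88) while its other probe differed by 0.41. Stria vascularis genes had a median of -0.41. Kcnj10, the potassium channel that sets the endocochlear potential, read 4.11 and 2.58, 2.90-fold lower (2.20 to 3.82), and read 2.499 with saline at 12 h. Dct, a pigment enzyme of strial melanocytes, was 2.02-fold lower (1.53 to 2.67).

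Spiral ligament genes had a median of -0.36 over 14 measured genes. Slc4a11, a transporter of fibrocytes, read 5.68 and 4.21, 2.79-fold lower (2.11 to 3.68), and its other probe differed by -0.51. Aqp5, a water channel in this list and in the gland list, was 9.75-fold higher (7.39 to 12.9). The connexins Gjb2 and Gjb6 differed by -0.38 and -0.46.

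Over the 24 genes of spiral ganglion neurons the median was -0.42. The potassium channel Kcna2 was 3.00-fold lower (2.27 to 3.97) and the glutamate transporter Slc17a7 2.85-fold lower (2.15 to 3.78), whereas the filament genes Nefl and Prph differed by -0.41 and -0.39. The 3 called higher were Calb1 (3.19-fold), which is also in the cerebellum list, and Syt2 and Scn8a, whose other probes lay on both sides of 0. Schwann cell and myelin genes had 3 called lower of 18 and a median of -0.56. S100b was 2.19-fold lower, and Mag was 3.86-fold lower on its brightest probe but 0.73 above baseline on its other probe. Kcnj10, Kcna2 and Slc17a7 lay 1.61, 1.75 and 1.78 below baseline on the saline 12 h array.

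The farthest genes belonged to tissues other than the cochlea. Of 16 measured genes of mucosal and salivary glands, 11 were called higher, and the list's median level went from 0.47 at baseline to 5.41 after treatment, a median difference of 2.93. Tff2, a trefoil peptide of mucus cells, read -0.72 and 6.30, 130-fold higher (98.7 to 172). Muc5b, the gel-forming mucin of airway and salivary glands, read 0.17 and 6.93, 109-fold higher (82.3 to 143), with its other probe at 6.99. Dmbt1 was 74.0-fold, Agr2 27.9-fold, Bpifb1 20.6-fold, Reg3g 17.4-fold and Scgb3a1 11.3-fold higher. The saline 12 h array differed from baseline by a median of 1.61 for this list, the noise only array by -0.46, the saline 24 h array by -0.66 and the dexamethasone 24 h array by -0.77.

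Other secretory genes were among the highest genes or largest bounds, by which they were chosen. The salivary protein gene Sbpl read 0.26 and 7.88, 196-fold higher (149 to 259), the zymogen granule gene Gp2 was 73.0-fold, the lipase Lipf 49.2-fold and Wfdc18 43.4-fold higher. The salivary genes Dcpp2 and Dcpp3 were above background on the treated array and not at baseline, at least 318-fold and 171-fold higher. These genes were not high on the treated array alone. With saline at 12 h Sbpl read 5.82, Gp2 2.97, Lipf 7.92 and Wfdc18 7.04. Dcpp2 read 2.996 on the treated array and 2.943 with saline at 12 h, and Dcpp3 read 2.099 and 1.879. Of the 15 highest genes by the naming rule, 7 are in the gland list, and Pcp2, Gdf15 and Ccl2 are in other lists.

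Skeletal muscle genes had 18 of 25 called higher and a median of 1.33, with Myh7 5.44-fold and Tnnc1 4.71-fold higher. The muscle median was 0.72 with noise only and 1.87 with saline at 12 h, above the treated array. At 24 h it was 0.94 with saline and 0.24 with dexamethasone. Of 16 measured muscle atrophy genes, 2 were called higher, 5 lay below 0 and the median was 0.11 (-0.42 on the spike-in scale). The called members Mstn and Trim63 were 5.05-fold (3.23 to 7.87) and 2.85-fold (2.15 to 3.77) higher, while Fbxo32, the other ubiquitin ligase of atrophy, differed by 0.12, which becomes negative on the spike-in scale. Epidermis and cornified envelope genes had 11 of 19 called higher and a median of 1.32, led by Krt6b (8.75-fold), Krt6a (5.68-fold) and Krt5 (4.51-fold). The epidermis median was 1.91 with saline at 12 h (19 genes) and -2.53 with noise only (14 genes). At 24 h it was -1.605 with saline (17 genes) and -1.80 with dexamethasone (12 genes). Cerebellar genes had 14 of 18 called higher, all 18 above 0, and a median of 1.64. The cerebellar median was 2.43 with noise only, above the treated array, and 1.605 with saline at 12 h. At 24 h it was 0.48 with saline and -0.37 with dexamethasone. Pcp2, a marker of Purkinje cells, read 0.27 and 4.91, 24.98-fold higher (18.9 to 33.0), and En2 and Neurod1 were 13.4-fold and 10.9-fold higher. Pcp2 read 5.23 with noise only and 5.03 with saline at 12 h, both above the treated array. Ciliated epithelium had no called member of 14 and a median of 0.34 (-0.19 on the spike-in scale).

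In the other direction, 8 of 13 sympathetic and catecholamine genes were called lower, with a median of -1.48. In the same list 1 gene was called higher and 3 lay above 0. Dbh, the enzyme that makes noradrenaline, read 3.58 at baseline and -2.5 after treatment, 67.8-fold lower (50.9 to 90.3). The noradrenaline transporter Slc6a2 was 33.5-fold lower, Phox2a 15.1-fold, Ddc 5.70-fold and Th 5.33-fold. Dbh read 3.74 with dexamethasone at 24 h, -2.93 with noise only and -4.88 with saline at 12 h. With saline at 24 h it was not well above background, at -5.34. Choroid plexus genes had 7 of 12 called lower and a median of -1.15, led by Ttr, the thyroxine carrier, which read 5.51 and 0.47, 32.9-fold lower (24.9 to 43.4), and the folate receptor Folr1, 6.66-fold lower (4.98 to 8.92). The choroid plexus median was -0.35 with noise only and -1.03 with saline at 12 h. At 24 h it was -0.51 with saline and 0.02 with dexamethasone. Ttr read 0.12 with noise only, 0.26 with saline at 12 h, 0.60 with saline at 24 h and 5.49 with dexamethasone at 24 h. Sensory ganglion genes had 2 of 16 called lower, Trpv1 among them, and a median of -0.49. These lists differed between the arrays in both directions. Without the genes of the other-tissue lists the counts were 1028 higher and 613 lower, and the part of these tissues in the values of other genes was not tested.

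**Figure D5:**
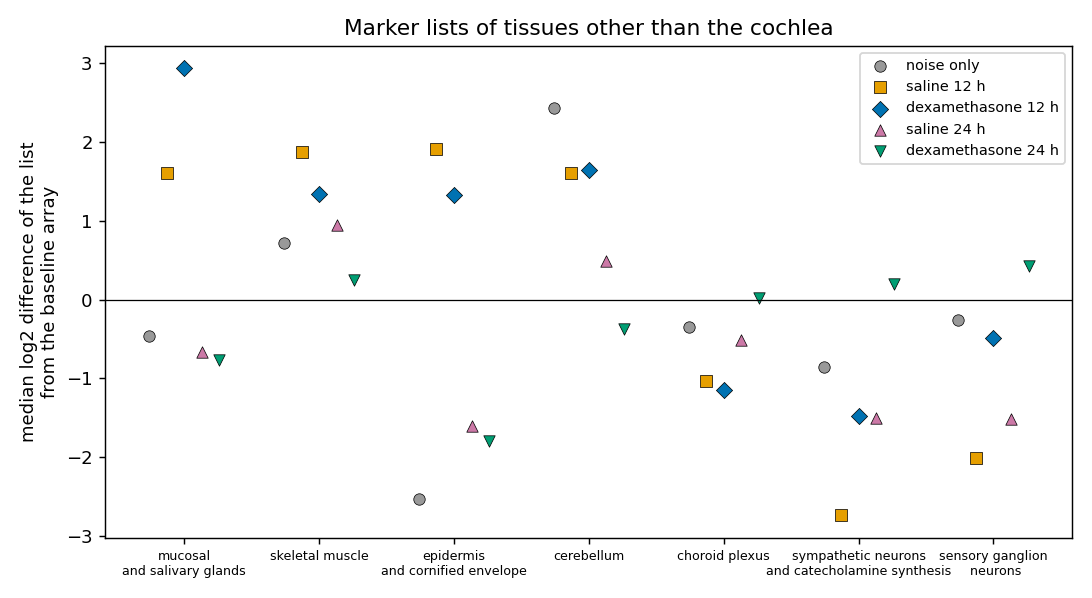
Median log2 difference from the baseline array for marker lists of 7 tissues or nerve types other than the cochlea, on each of the other 5 arrays. The dexamethasone 12 h array (diamonds) stands highest of the 5 for glands, at 2.93, above baseline for muscle, epidermis and cerebellum, and below it for choroid plexus, at -1.15, and sympathetic neurons, at -1.48.

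Of the 15 lowest genes, those outside the lists included Glra1, a glycine receptor subunit, 19.4-fold lower (14.7 to 25.8), Rab3b (3.97-fold), Pck1 (3.88-fold), Enpp2 (3.76-fold) and the serotonin receptor gene Htr3a (3.60-fold). Pck1, the gluconeogenic enzyme that glucocorticoids induce in liver, read 1.21 at baseline, -0.75 after treatment and -1.65 with saline at 12 h. The other probes of Enpp2 lay between -0.57 and -0.12. Glra1 also lay 4.38 below baseline with saline at 12 h.

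Some genes stood apart on 1 array of the 6. Abhd16b and Lexm were above background on the treated array, at least 63.8-fold and 43.3-fold higher than baseline, and Olfr516 and Smok2b on the baseline array, at least 12.8-fold and 11.9-fold higher than after treatment. A bound is given only where no probe of the gene was above background on the other array. For these 4 genes no second probe could therefore compare the arrays. Atf7 was 20.02-fold higher on its brightest probe (15.2 to 26.4), while its 4 other measured probes lay between -0.38 and 1.18. That brightest probe was also high with saline at 12 h, at 2.43 beside -0.02 at baseline and 4.31 on the treated array. Of the other large bounds, Syt10, Oit3 and Cryba2 were above background at baseline and not after treatment, at least 26.3-fold, 18.7-fold and 11.4-fold lower. Syt10 and Cryba2 were above background on 5 of the 6 arrays and Oit3 on 2. Among called genes with further measured probes, 371 in number, all probes had the same sign in 76.6%. The share of genes called went from 11.8% among the dimmest of 4 equal groups by signal to 4.21% among the brightest.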

How the data were processed

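Cochlear RNA was hybridised to Agilent 1-colour arrays, 1 per group, each scanned and quantified by the authors with Agilent Feature Extraction 10.10.1.1, per the submitters' processing notes. The deposited intensity values are processed signals, background-subtracted and detrended, with no scaling between arrays, per the file headers. The deposited log2 values of the series matrix matched these after subtraction of each array's 75th percentile, within 0.01 for 100% of probes apart from a constant under 0.01. The authors' deposited flags, unit other, gave the background calls.

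Outlier spots (81 at baseline, 102 after dexamethasone at 12 h) were left out, repeat spots averaged, log2 signals centred on the 75th percentile of non-control probes, and each gene given its brightest probe, judged by the mean of all 6. Of 56589 probes, 32978 were named through RefSeq (GRCm38.p6) and the rest by the file. Spot intervals are 1.96 times the combined spot error, whose median was 10.0% of signal per array. For a bound, the other array was taken at the lowest signal it called above background, or at the gene's own signal there if higher. Genes named are the 15 highest and 15 lowest at or above the median signal, the 5 largest bounds in each direction, up to 5 members per list, and a fixed set of genes, with other list members shown to describe a list; clone and accession names were passed over. The members and lists were chosen with earlier results of these data known, and the NF-kB motif after the values were seen. No test was run, since 1 array a group gives no spread between replicates, and precision is limited by their number. The calculation was tested on simulated data. Python 3 with pandas and R with limma were used. Some genes that the naming rule selects are not reported here.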

Additional observations from a re-analysis of the deposited data

Results flagged for a closer look

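The gland list and the epidermis list lay on opposite sides of baseline at the 2 dexamethasone times, which is why they are listed here. The gland median was 2.93 at 12 h and -0.77 at 24 h, over 16 measured genes each time. The epidermis median was 1.32 over 19 measured genes at 12 h and -1.80 over 12 at 24 h. The 2 epidermis medians therefore do not cover the same genes. Both comparisons use the same baseline array, and the difference between the times was not tested.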

How the results depend on the processing

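No paired analysis was possible because each group has 1 array and no replicate number, and for the same reason no replicate could be left out. The counts of 1085 higher and 630 lower became 546 and 313 with normexp background correction and quantile normalization, 379 and 3449 with spike-in scaling, 341 and 184 over genes at or above the median signal, and 3300 and 1533 with no filter on dim probes. At 1.5-fold they were 2720 and 2316, and at 3-fold 343 and 143. Quantile normalization gave 901 and 825, a share of 52.2% higher in place of 63.3%. The series matrix values, the percentile over probes above background on all 6 arrays, the mean over probes, and leaving out the lists of other tissues moved neither count by more than 1.5 times. For 2 of these settings no other outcome was possible. The series matrix holds the same signals apart from a constant. Leaving out the lists kept 23667 of 23821 genes, and secretory genes outside the lists stayed in, so the part of other tissues in the counts was not tested.

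Among lists whose median was at least 0.1 from 0, spike-in scaling reversed 10: glucocorticoid receptor targets (-0.27), endoplasmic reticulum stress (-0.11), heat shock proteins (-0.20), NF-kB and feedback genes (-0.36), muscle atrophy genes (-0.42), interferon response (-0.36), ciliated epithelium (-0.19), chemokines and cytokines (-0.29), acute phase proteins and metallothioneins (-0.10) and ribosomal proteins (-0.31). Over genes at or above the median signal, chemokines and cytokines (-0.23) and endothelium and vessels (0.030) changed sign, as did apoptosis regulators (0.011) with the mean over probes. Of the lists nearer 0, spike-in scaling also turned supporting cells and tectorial membrane (-0.53) and oxidative phosphorylation (-0.52), and other settings turned these, the glucocorticoid receptor machinery or the pituitary list, so these medians have no settled sign. No called gene that the naming rule selects changed sign under any of these alternatives. Most of them could not change it. A called gene lies at least 1 unit from 0, while spike-in scaling shifts every gene by 0.53 and the all-array percentile by 0.033. The settings that change only which genes are counted keep each difference as it was. Only quantile normalization, normexp correction and the mean over probes could have turned a sign. Signal limits the dim genes most, since spot error is largest there.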
